A study of Mus musculus with 32 samples.

Results

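The Vmn2r genes are the vomeronasal type 2 receptors of the mouse. They were taken as every gene of the deposited table whose symbol is Vmn2r followed by a number, which gave 122 of the 27179 genes in the table. Symbols of the Vmn2r-ps kind, which name pseudogenes of the family, were not included, although RefSeq annotates 1 of the 122, Vmn2r125, as a pseudogene. The measurement was methylated DNA immunoprecipitation sequencing (MeDIP-seq), in which single-stranded genomic DNA is pulled down with an antibody against 5-methylcytosine (5mC) and the recovered fragments are sequenced. The organs were mouse brain, heart, kidney and liver, each either flash frozen (frozen) or fixed in formalin and embedded in paraffin (FFPE), with no other treatment named. The labels describe 32 samples in 16 groups of 2, from each organ, each preservation and either the 5mC antibody or the input DNA. The table holds 8 columns, each named by an organ and a preservation. Since a column name holds no antibody and no replicate number, each column was read as 1 library of its 5mC group, and the input libraries were not used here. The labels name no strain, age, sex or separate animals. With 1 column per organ and preservation, p-values rest on departures from additive effects of organ and preservation and on spread shared over genes. They do not measure a spread between replicates, and the spread they use may be technical.

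Type 2 vomeronasal receptors are class C G protein-coupled receptors with a large extracellular domain. They are expressed by sensory neurons in the basal layer of the vomeronasal organ, which signal through the G protein subunit encoded by Gnao1 and the channel encoded by Trpc2, and they detect peptide and protein pheromones. Most basal neurons express 1 receptor of families A, B or D together with a broadly expressed receptor of family C, the family of Vmn2r1 to Vmn2r7. The genes lie in clusters of recently duplicated copies on several chromosomes. The vomeronasal organ is not among the organs measured, so the values describe methylated DNA over these genes outside the organ in which they act. In whole organs, the share of cells that carry a methylated copy and the number of methylated sites per copy cannot be told apart.

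CG pairs, the dinucleotide at which mouse DNA is mainly methylated, are few before the starts of most of these genes. The sequences that follow show the range, from no pair to the most in the family. Each is the 250 bases before the gene's annotated start, from RefSeq on GRCm38.p6, printed 5′ to 3′ on the gene's own strand, with CG pairs in capitals. Vmn2r29 held the most CG pairs of the family and had the smallest p of the family in every comparison in which it was called. Vmn2r27 is shown for its lack of any CG pair, Vmn2r2 for the smallest p among genes higher in brain, and Vmn2r1 for the smallest p among those lower in liver. Vmn2r31, whose upstream sequence is identical to that of Vmn2r33 and Vmn2r38, was added after the sequences had been compared. The regions are chr7:7278290-7278539 for Vmn2r29, chr6:124231785-124232034 for Vmn2r27, chr3:64137481-64137730 for Vmn2r2 and chr7:7399628-7399877 for Vmn2r31, all on the minus strand. The region of Vmn2r1, chr3:64081392-64081641, is on the plus strand.
Vmn2r29: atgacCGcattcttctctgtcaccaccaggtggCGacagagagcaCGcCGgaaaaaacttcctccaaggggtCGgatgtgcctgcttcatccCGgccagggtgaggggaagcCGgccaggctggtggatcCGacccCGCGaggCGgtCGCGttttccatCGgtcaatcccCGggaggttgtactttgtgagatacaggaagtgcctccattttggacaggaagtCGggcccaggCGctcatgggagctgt
Vmn2r27: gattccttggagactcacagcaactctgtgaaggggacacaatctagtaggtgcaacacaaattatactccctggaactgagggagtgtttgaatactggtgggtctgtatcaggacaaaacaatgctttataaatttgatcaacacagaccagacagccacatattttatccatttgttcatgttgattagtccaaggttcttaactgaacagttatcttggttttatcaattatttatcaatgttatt
Vmn2r2: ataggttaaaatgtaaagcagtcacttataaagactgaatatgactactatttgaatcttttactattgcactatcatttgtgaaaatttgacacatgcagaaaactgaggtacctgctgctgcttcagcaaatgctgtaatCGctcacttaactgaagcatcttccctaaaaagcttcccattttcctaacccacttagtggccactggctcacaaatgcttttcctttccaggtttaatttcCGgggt
Vmn2r1: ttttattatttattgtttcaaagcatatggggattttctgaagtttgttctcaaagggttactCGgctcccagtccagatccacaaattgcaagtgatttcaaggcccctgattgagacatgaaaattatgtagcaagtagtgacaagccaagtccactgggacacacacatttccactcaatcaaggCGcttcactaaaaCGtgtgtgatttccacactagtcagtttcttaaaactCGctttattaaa
Vmn2r31: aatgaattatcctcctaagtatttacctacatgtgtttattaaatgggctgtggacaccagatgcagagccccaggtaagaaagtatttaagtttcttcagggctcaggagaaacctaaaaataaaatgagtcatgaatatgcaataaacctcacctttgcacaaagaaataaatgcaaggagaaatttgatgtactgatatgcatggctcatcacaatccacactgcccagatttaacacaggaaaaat

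The start used for Vmn2r2 lies 33437 bases inside the annotated gene, and that of Vmn2r1 lies 3470 bases inside, so both upstream windows fall within the annotated gene body. Vmn2r29 had 17 CG pairs in its window, Vmn2r1 had 4, Vmn2r2 had 2, and Vmn2r27 and Vmn2r31 had 0. RefSeq held an upstream sequence for 114 of the 122 genes. Their median was 1 CG pair, against 6 over all 27025 genes with an entry, and 41 of the 114 (36.0%) held none, against 8.26% of all genes. A count of 3 or fewer was found in 110 of the 114 (96.5%) and in 38.1% of all genes. The other large chemoreceptor families were alike in this, with a median of 1 CG pair among 205 Vmn1r genes and 1 among 940 olfactory receptor genes. Vmn2r29 was the only gene of the 114 above 4 CG pairs. The upstream sequences are also close copies: 58 of the 114 had another family member at 90% identity or more, 30 had one at 95% or more, and 9 were identical to another. The sources used here do not say how reads that fit several copies were counted, so the values of such near-identical genes are uncertain individually.

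Each library held between 2164158 (FFPE kidney) and 3699218 (frozen liver) reads on genes. The deposited values are log2 counts per library size, with a further scaling factor for each library (0.851 in FFPE liver to 1.098 in FFPE brain), and the read counts were recovered from them. Levels given in CPM are reads scaled to the reads of the library alone, without that factor, whereas log2 values and differences include it. The spread of the log2 values over all genes was narrowest in frozen brain, with an SD of 2.07, and ran from 2.31 to 2.91 in the other libraries. The 5mC signal over marker genes differed by organ. In liver 11 of 12 hepatocyte genes were lower, against 7.42% of all genes, and in heart 4 of 12 cardiomyocyte genes were lower, against 1.97%. In brain 5 of 12 neuron genes were lower, against 12.8% of all genes, and 1 was higher, against 8.61%. In kidney 0 of 12 nephron genes passed the test, with limma, while 2 had an unadjusted p under 0.05. Of all genes 0.897% were higher and 0.566% lower in kidney.

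The Vmn2r genes carried little 5mC signal for their size. The mean level per kilobase of annotated span in CPM had a median of 0.160 over the 122 genes, against 1.36 over the 25275 genes with an annotated length. Of those genes, 7.58% were below the Vmn2r median. The Vmn1r genes, the other vomeronasal receptor family, had a median of 1.60 and the olfactory receptor genes 3.67, on spans that are much shorter. The median span of a Vmn2r gene was 24.0 kb. Among all genes the level rose with the span (Spearman rho 0.616, across genes, which are not independent replicates), whereas among the 121 Vmn2r genes tested rho was -0.0136. The sources used here do not say whether reads were counted over exons or whole genes, so the per-kilobase levels apply to the annotated span only.

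Per kilobase, the highest of the family was Vmn2r29 at 3.10 CPM, followed by Vmn2r129 at 1.43, Vmn2r5 at 1.03, Vmn2r89 at 0.761 and Vmn2r9 at 0.678. The lowest with any read were Vmn2r60 at 0.0348, Vmn2r91 at 0.0363, Vmn2r61 at 0.0448 and Vmn2r103 at 0.0518. Vmn2r122 had 0 reads in all 8 libraries, which allows up to 0.811 CPM in the deepest library and 1.39 in the shallowest. RefSeq places Vmn2r122 on a scaffold assigned to chromosome 4 but not placed within it. It was the only one of the 122 that did not reach 1 CPM in at least 2 libraries, so 121 genes were tested. Genes with more CG pairs upstream had somewhat higher levels: the median of the mean level was 3.38 CPM over 85 genes with 0 or 1 pair, 4.49 over 25 genes with 2 or 3, and 9.36 over the 4 genes with 4 or more. Over the 114 genes with a sequence, the rank correlation of CG pairs with the mean level was 0.285, a description across genes that share libraries and, in many cases, sequence.

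All 122 genes together took 1072 CPM in frozen brain and 807 in FFPE brain. They took 609 in frozen heart and 619 in FFPE heart, and 535 in frozen kidney and 745 in FFPE kidney. In liver they took 444 in the frozen library and 844 in the FFPE library. The FFPE liver library thus stood second of 8, above FFPE brain, but 61.6% of its reads on the family fell on Vmn2r29. Without Vmn2r29 the other 121 genes took 1026 CPM in frozen brain and 614 in FFPE brain. In the same order heart had 552 and 431, kidney 402 and 407, and liver 297 and 324. On that count both brain libraries were above all 6 others and both liver libraries were below them, with the scaling factors and without. The order with Vmn2r29 depended on the factors, since with them FFPE liver (991) and frozen brain (985) were nearly level. The single genes rest on few reads: the median Vmn2r gene had 16 reads in frozen brain, 13 in FFPE brain and fewer in the other libraries, down to 6 in FFPE kidney. In frozen kidney 15 of the 122 genes had 0 reads, against 1 to 5 in each other library. Zero counts were common over the whole table in that library. Its 10th percentile of log2 values over all genes was -2.72, the value of a gene with 0 reads. In the other libraries that percentile ran from -0.82 (FFPE liver) to 1.20 (frozen brain).

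**Figure D1:**
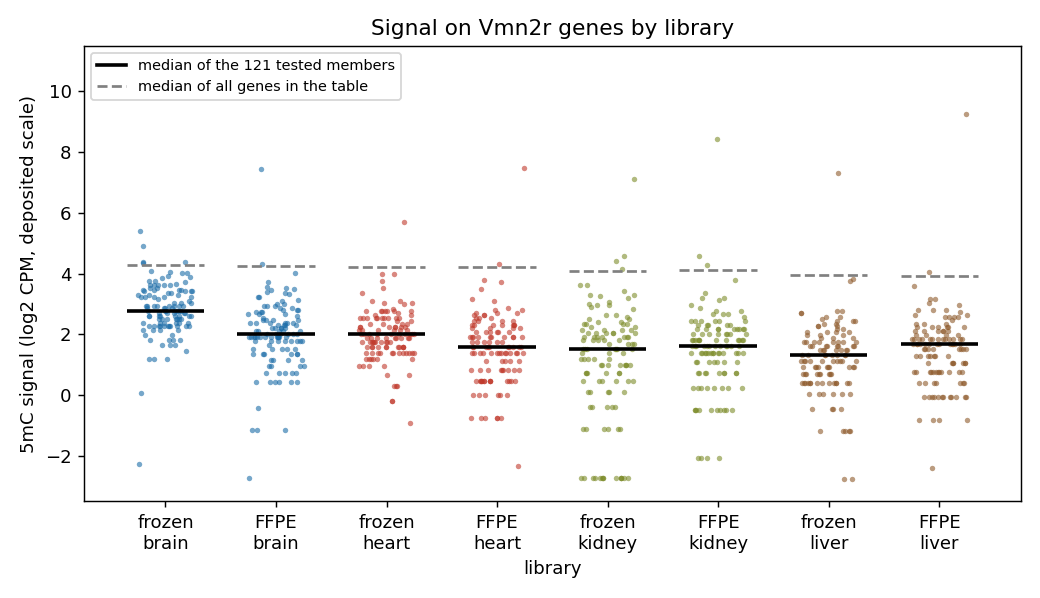
The 5mC signal in log2 CPM (vertical axis) in each of the 8 libraries (horizontal axis), with 1 point per Vmn2r gene and the medians of the Vmn2r genes and of all genes marked. The Vmn2r median is highest in frozen brain at 2.78 and lies between 1.22 and 2.01 in the 7 other libraries, below the all-gene median in each.

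On the log2 scale the median Vmn2r gene stood at 2.78 in frozen brain and 2.01 in FFPE brain. Heart had 1.95 when frozen and 1.57 as FFPE, kidney had 1.53 and 1.62, and liver had 1.22 and 1.69. The median over all genes moved less, between 3.90 and 4.28. Of the 121 tested Vmn2r genes, 69 had their highest value in frozen brain and 9 in FFPE brain. The lowest value fell most often in frozen kidney (37 genes) and frozen liver (31 genes). Over all genes the 10th percentile of log2 values was also highest in frozen brain, at 1.20, and lowest in frozen kidney, at -2.72. Such counts for other genes are not given here. The median SD over the 8 libraries was 0.97 for Vmn2r genes and 0.56 for all genes tested, on log2 values. The 2 sets differ in signal, with a median of the mean log2 value of 1.66 and 4.21. The SD of other genes of like signal is not given here, so the larger SD is not particular to the family. The steadiest Vmn2r genes were Vmn2r5, Vmn2r9 and Vmn2r116. The most variable were Vmn2r118, Vmn2r88 and Vmn2r27, each of which had 0 reads in frozen kidney.

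The first comparison asked which Vmn2r genes differed in brain from the mean of the other 3 organs, with organ and preservation in 1 model over the 8 libraries. The 4 organ comparisons use the same 8 libraries and are not independent. In brain 8 of the 121 genes were higher at an adjusted p under 0.05 (limma, adjusted over all 25982 genes tested), which is 6.61% of them, against 8.61% of all genes. The family's share was thus near that background. Lower in brain was 1 gene, Vmn2r29, against 12.8% of all genes, and 23 genes (19.0%) had an unadjusted p under 0.05, against 36.7% of all genes. The direction was common all the same: the difference was positive in 110 of 121 genes, with a median log2 difference of 0.90 against 0.11 over all genes. It was larger in frozen organs, with a median of 1.31, than in FFPE organs, with 0.58, and 85 genes were positive in both. Other genes of low signal leaned the same way, as described below, and their counts of positive genes are not given here. Both brain libraries were above the 6 others in 26 of the 121 genes (21.5%), against 16.5% of all genes.

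Of the 8 genes higher in brain, 4 belong to family C, in its cluster on chromosome 3, which also holds the 3 uncalled genes of that family. Vmn2r1 (chromosome 3, 64078172 to 64220847) had 72 reads in frozen and 54 in FFPE brain, 45 and 17 in heart, 30 and 29 in kidney, and 14 and 12 in liver. Both brain libraries were the highest after scaling to depth, FFPE brain only just above frozen heart, and both liver libraries were the lowest. Its log2 difference in brain was 1.45 ± 0.45 (SE), with an adjusted p of 0.0310. Vmn2r2 (chromosome 3, 64115730 to 64170917) had 40 and 33 reads in frozen and FFPE brain, 18 and 15 in heart, 10 and 4 in kidney, and 6 and 7 in liver. The brain libraries did not overlap the others, and the difference was 1.95 ± 0.60 with an adjusted p of 0.0300. The annotated span of Vmn2r2 lies wholly within that of Vmn2r1 (55188 shared bases), so the 2 calls may rest on the same fragments.

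Vmn2r4 had 29 and 37 reads in frozen and FFPE brain, 16 and 3 in heart, 6 and 7 in kidney, and 4 and 6 in liver, a log2 difference of 2.30 ± 0.74 (adjusted p = 0.0356, limma). Vmn2r6 had 34 and 25 reads in brain, 16 and 4 in heart, 10 and 5 in kidney, and 9 and 2 in liver, a difference of 2.09 ± 0.67 (adjusted p = 0.0364, limma). For both genes the 2 brain libraries were above all others, and frozen heart came next. The 3 other genes of family C did not pass the test. Vmn2r7, with 22 and 25 reads in brain, 8 and 10 in heart, 0 and 8 in kidney, and 12 and 3 in liver, had a difference of 2.21 and an adjusted p of 0.115. It lies within the span of the pseudogene Vmn2r-ps11. Vmn2r3 was highest in frozen kidney, with 58 reads against 38 in frozen brain, and its difference was 0.76. Vmn2r5 was the steadiest gene of the whole family, with 43 to 79 reads in every library, an SD of 0.28 on log2 values and a brain difference of 0.13.

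The remaining 4 genes higher in brain came from 4 other clusters. Vmn2r85 on chromosome 10 (130418261 to 130429612) had 31 and 16 reads in frozen and FFPE brain, 8 and 9 in heart, 2 and 4 in kidney, and 1 and 1 in liver. Vmn2r79 on chromosome 7 (86996465 to 87037968) had 32 and 15 reads in brain, 7 and 1 in heart, 1 and 5 in kidney, and 1 and 2 in liver. In both genes the frozen brain library was well above FFPE brain, which in turn was above the other 6. The log2 differences were 2.65 ± 0.84 for Vmn2r85 (adjusted p = 0.0350) and 3.05 ± 1.01 for Vmn2r79 (adjusted p = 0.0407, limma). Vmn2r23 on chromosome 6 had 29 and 21 reads in brain and 1 to 8 in the other libraries, a difference of 2.57 ± 0.87 with an adjusted p of 0.0461 by limma. Vmn2r89 on chromosome 14 had 36 and 44 reads in brain and 6 to 23 elsewhere, a difference of 1.70 ± 0.55 with an adjusted p of 0.0389 by limma. Vmn2r89 lies within the annotated span of Gm7247, so their reads may be shared. None of the 8 calls rests on more than 126 brain reads. The pooled reads give ratios of brain to the other organs from 2.84 (95% exact interval 2.22 to 3.63) for Vmn2r1 to 9.18 (5.17 to 17.0) for Vmn2r79, intervals that cover counting error only.

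These 8 calls depended on the libraries and the scaling. The counts that follow are of Vmn2r genes alone, without the share of all genes called in the same setting. They show the stability of the calls and not whether the family departs from the whole table. After quantile normalization, which gives every library the same distribution of values, 0 of the 8 genes passed, 3 were lower, and the median difference of the family was 0.22 in place of 0.90, positive in 67 of 121. With each library centred on its median, which moved the all-gene median in brain from 0.11 to -0.04 and in liver from -0.10 to 0.10, 6 were higher and 1 lower, with a median of 0.75. With each of frozen brain, FFPE brain and FFPE heart left out in turn, 0 passed; without frozen liver 1 passed and without frozen heart 3. Without the frozen kidney library 14 passed, and without the FFPE kidney library 24.

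**Figure D2:**
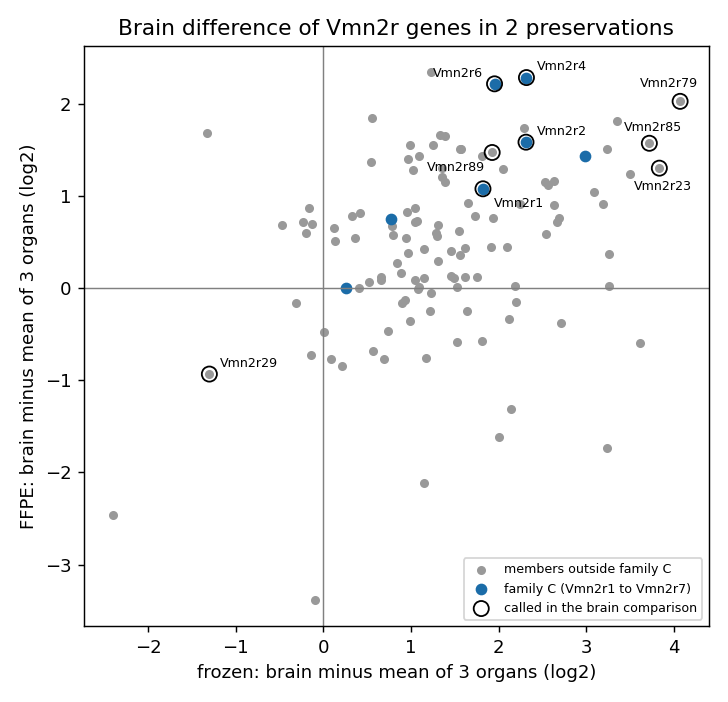
Each point is 1 of the 121 tested Vmn2r genes, placed by its brain difference in the frozen libraries (horizontal axis, log2) and in the FFPE libraries (vertical axis, log2). In 85 genes both are positive and in 5, Vmn2r29 among them, both are negative.

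The clusters differed in how far their genes leaned toward brain. Genes less than 1 Mb apart were joined, which gave 19 clusters, single genes included. The cluster of family C on chromosome 3 had the highest median log2 difference among the clusters of 4 or more genes, 1.95, with 4 of 7 genes called. The chromosome 6 cluster of Vmn2r19 to Vmn2r27 followed with a median of 1.77. There the difference was positive in 9 of 9 genes and 7 had an unadjusted p under 0.05, but only Vmn2r23 passed the adjusted test. On chromosome 7, the cluster of Vmn2r65 to Vmn2r79 had a median of 1.09, positive in 15 of 15, with 1 called. At the other end, the 21 genes of Vmn2r90 to Vmn2r110 on chromosome 17 had a median of 0.46, and 0 of them passed. Outside family C, 4 of 114 genes were higher in brain and 1 was lower, with a median difference of 0.89. Beside these counts of called genes, 8.61% of all genes were higher and 12.8% lower in brain. After quantile normalization the medians were 1.38 in family C, positive in 6 of 7, and 1.22 in the chromosome 6 cluster, positive in 9 of 9. The chromosome 17 cluster turned to -0.44 under that scaling, with 5 of 21 positive, and the 24 genes of the Vmn2r29 cluster on chromosome 7 went from 0.78 to -0.11. Differences between clusters were not tested.

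**Figure D3:**
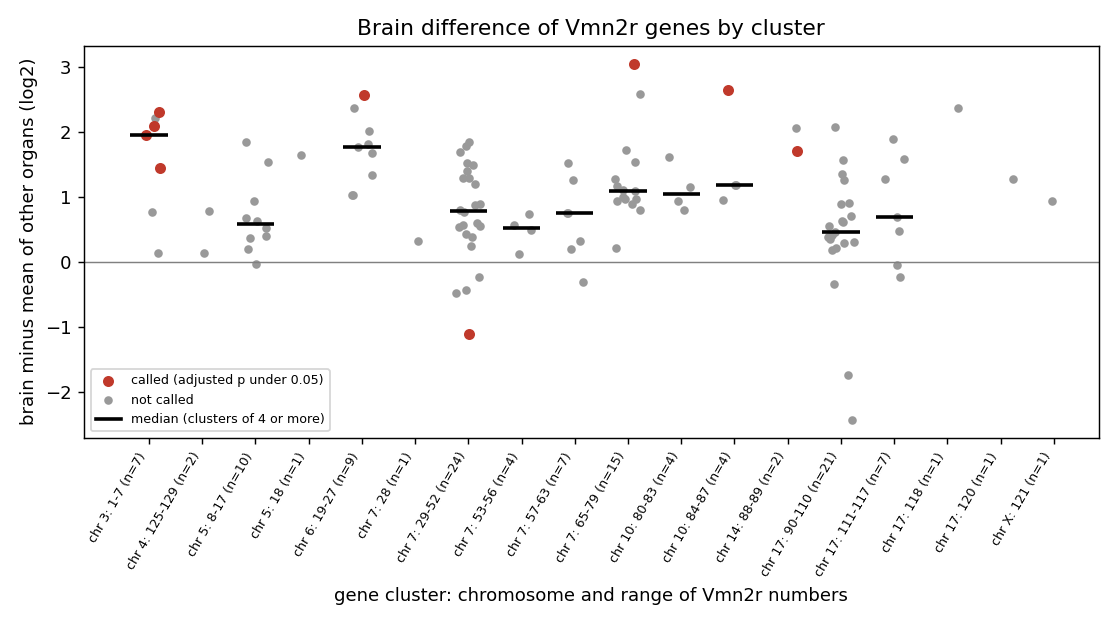
Brain difference (vertical axis, log2) of each tested Vmn2r gene, grouped by genomic cluster (horizontal axis, chromosome and range of Vmn2r numbers), with cluster medians. The family C cluster on chromosome 3 and the chromosome 6 cluster have medians of 1.95 and 1.77, and the large chromosome 17 cluster has 0.46.

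The lean toward brain was shared by other genes of low signal. When all tested genes were ordered by their mean log2 value and divided into 10 equal groups, the median brain difference fell with each step, from 1.30 in the lowest group to -0.44 in the highest. The 121 Vmn2r genes sat low in this order: 12 were in the lowest group, 69 in the next and 35 in the third. Their medians there were 1.60, 0.89 and 0.88, beside 1.30, 1.08 and 0.74 for all genes of the same groups. Among the 3532 genes whose mean lay between the 10th and 90th percentile of the Vmn2r genes, 278 were higher in brain (7.87%) and 14 were lower, with a median difference of 0.98. The Vmn2r median of 0.90 was close to that. Of these 3532 genes, 906 (25.7%) had both brain libraries above the others, against 21.5% of the Vmn2r genes. The library with the narrowest spread over all genes was also the one in which the family stood highest, frozen brain. The part of this difference in spread in the result was not tested.

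**Figure D4:**
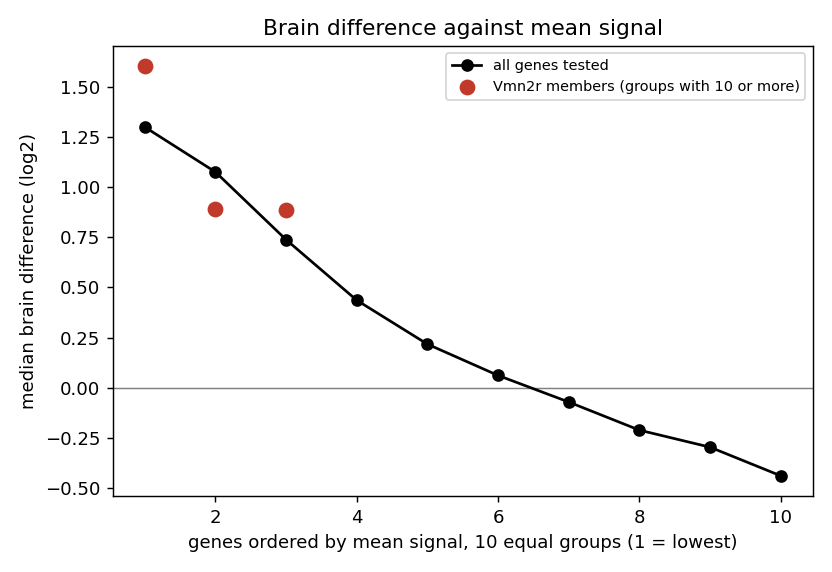
Median brain difference (vertical axis, log2) in 10 equal groups of genes ordered by mean signal (horizontal axis, 1 is the lowest), for all tested genes and for the Vmn2r genes in groups that hold 10 or more of them. The all-gene median falls from 1.30 to -0.44, and the 3 groups that hold 116 of the 121 Vmn2r genes have Vmn2r medians of 1.60, 0.89 and 0.88.

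In liver 3 of the 121 Vmn2r genes were lower than the mean of the other organs, against 7.42% of all genes, and 1 was higher, against 11.8% (limma, adjusted p under 0.05). An unadjusted p under 0.05 was reached by 9.92% of them and by 32.6% of all genes. The median log2 difference was -0.43, -0.68 in frozen organs and -0.12 in FFPE organs. Genes in the same range of mean signal had a median of -0.61, and after quantile normalization the median of the family turned to 0.21. Vmn2r1, whose reads are given above, had a liver difference of -1.63 with an adjusted p of 0.0183. Vmn2r85, with 1 read in each liver library, had -2.70 ± 0.84 and an adjusted p of 0.0339. From pooled reads, its level in the other organs was 15.0 times that in liver, with a counting interval of 3.99 to 126.1. Vmn2r87, the neighbour of Vmn2r85 on chromosome 10, had 5 and 3 reads in frozen and FFPE liver, 16 and 26 in brain, 20 and 11 in heart, and 12 and 9 in kidney, a difference of -1.94 (adjusted p = 0.0409, limma). In all 3 genes both liver libraries were the lowest of the 8. The counts under other settings that follow are again of Vmn2r genes alone, without the share of all genes called. None of the 3 calls remained after quantile normalization, and none without frozen brain, frozen heart, frozen liver or FFPE liver. Without FFPE heart 1 gene was lower in liver, without frozen kidney 13 and without FFPE kidney 8.

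In heart, 0 Vmn2r genes were higher, against 0.162% of all genes, and 1, Vmn2r29, was lower, against 1.97%. In limma, 2 genes (1.65%) had an unadjusted p under 0.05, against 14.6% of all genes, and the family's median difference was 0.10, turning to -0.24 after quantile normalization. In kidney, 1 gene was higher, again Vmn2r29, against 0.897% of all genes, and 0 were lower, against 0.566%, with 15 genes (12.4%) at an unadjusted p under 0.05 by limma, against 18.6% of all genes. The median there was -0.31, turning to 0.12 after quantile normalization. The count that follows is given without the share of all genes called in that setting. The count lower in kidney rose to 19 once the FFPE kidney library was left out and only the frozen one stood for the organ. In that library the share of genes with an even number of reads, among genes with 1 to 40 reads, was 54.8%, against 48.8% to 51.1% in the others, while among the Vmn2r genes it was 50.5%.

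Between the preservations, 1 Vmn2r gene was higher in FFPE, against 0.62% of all genes, and 0 were lower, against 0.735% (limma; 4.96% had an unadjusted p under 0.05, against 10.7% of all genes). The family as a whole had a median log2 difference of -0.12. By organ, the median of FFPE minus frozen was -0.75 in brain and -0.44 in heart, and 0.20 in kidney and 0.26 in liver. The 10th percentile of log2 values over all genes was also lower in FFPE in brain and heart and higher in kidney. In liver it was lower in FFPE, unlike the family. Only 2 Vmn2r genes were higher in FFPE in all 4 organs and 13 were lower in all 4, and such counts for other genes are not given here.

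The single gene higher in FFPE was Vmn2r29 (Entrez 76229, chromosome 7, 7212996 to 7278289 on GRCm38.p6), a protein-coding gene by its annotation. It had 102 reads in frozen and 588 in FFPE brain, 149 and 449 in heart, 458 and 732 in kidney, and 545 and 1611 in liver. In each organ the FFPE library was the higher one, and within each preservation liver was the highest, kidney next, and brain and heart the lowest. Scaled to depth, its levels ran from 46.2 CPM in frozen brain to 519 in FFPE liver. Ranked among all genes by signal, it was 6354th in frozen brain and 57th in FFPE liver. The FFPE difference was 1.77 ± 0.13 on the log2 scale, 3.40-fold, with an adjusted p of 9.8e-07 by limma. It was positive in 4 of 4 organs, at 2.04 in brain, 1.77 in heart, 1.31 in kidney and 1.94 in liver. By p, Vmn2r29 was the 8th of 161 genes higher in FFPE over the whole table.

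By organ, Vmn2r29 was lower in brain by limma, with a log2 difference of -1.12 ± 0.15 and an adjusted p of 0.000259, and lower in heart, with -0.90 and an adjusted p of 0.00711. The heart call was lost without the frozen heart library (adjusted p = 0.347, limma) and without the FFPE heart library (adjusted p = 0.197, limma). It was higher in liver, with 1.35 and an adjusted p of 6e-05 by limma. The kidney difference was 0.67 with an adjusted p of 0.0407, a call lost in 10 of 15 alternatives, and pooled kidney reads were 1.05 times those of the other organs (interval 0.984 to 1.12). The brain and liver calls ran against the family, whose other called genes were higher in brain and lower in liver. Vmn2r29 was, however, the only Vmn2r gene in the highest of the 10 groups by mean signal. All genes of that group had median log2 differences of -0.44 in brain, -0.18 in heart, 0.17 in kidney and 0.44 in liver. These have the same directions as those of Vmn2r29. The part of signal level in its differences was not tested. Vmn2r31, a gene of the same cluster, had 4 to 14 reads in each library. The only annotated gene that Vmn2r29 overlaps is the pseudogene Gm18190, by 581 bases.

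**Figure D5:**
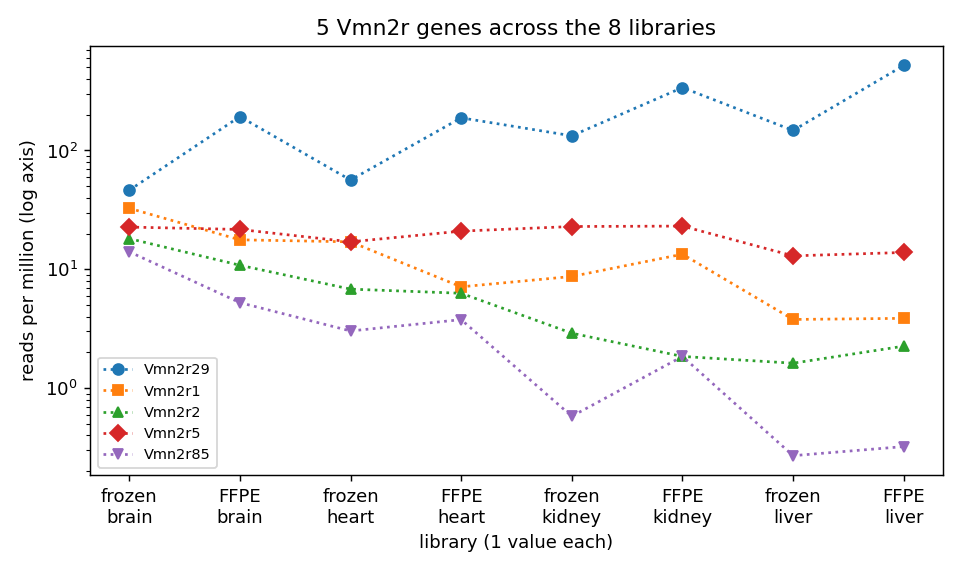
Level in CPM (vertical axis, log scale) of 5 Vmn2r genes in each of the 8 libraries (horizontal axis, 1 value per library). Vmn2r29 rises from 46.2 in frozen brain to 519 in FFPE liver and is higher in the FFPE library of every organ, while the other genes shown lie below it in each library.

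Genes whose log2 values followed those of Vmn2r29 over the 8 libraries were listed by a rule chosen after its values were seen, among 11130 genes with an SD above 0.6 and leaving out unnamed gene models. The closest were Lars2, a mitochondrial leucyl-tRNA synthetase (Pearson r 0.981), Meig1 (0.980), Eif4a3l1 (0.980) and Psat1, an enzyme of serine synthesis (0.977). Next were Rn18s and Rn45s, which encode ribosomal RNA (0.975 and 0.965), and Grm4, a metabotropic glutamate receptor (0.960). Lars2 had 660 reads in frozen and 3224 in FFPE brain, and 3013 and 9856 in liver. Rn45s had 15436 and 65357 reads in brain, and 57558 and 154247 in liver. Both were thus higher in FFPE than in frozen tissue of these organs, as Vmn2r29 was. The correlations describe 8 values that share their libraries, and no test was made.

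Lists of genes set out by role were read next, and not all of their genes are partners of the Vmn2r receptors. Of 27 genes for vomeronasal signal transduction and neuron identity, 5 were higher and 4 lower in brain, with a median log2 difference of 0.10. Genes in the same range of mean signal had a median of -0.07, with 9.34% higher and 15.5% lower. The split depended on the scaling, at 8 and 3 after quantile normalization and 3 and 8 with centred libraries. Gnao1, which encodes the G protein subunit these receptors use, was lower in brain: it had 98 reads in frozen and 130 in FFPE brain, 308 and 235 in heart, 362 and 157 in kidney, and 235 and 175 in liver. The brain libraries were the lowest, with a difference of -1.09 ± 0.17 and an adjusted p of 0.000535 by limma. Gnao1 is also a major neuronal G protein gene of the brain. Gnai2, another G protein subunit gene of the list, was lower in brain to a like degree, with -1.06 (adjusted p = 0.00743, limma). Ldb1, a cofactor of LIM-domain transcription factors, was lower by 1.67 on the log2 scale, and Lhx2, a LIM homeobox gene of olfactory neurons, was higher by 1.73. Plcb2, a phospholipase C gene, was higher by 0.87. Trpc2 had 250 to 469 reads per library, a brain difference of -0.14 and an adjusted p of 0.504.

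The next list held 9 H2-M genes, MHC class Ib genes known from basal vomeronasal neurons, and B2m, the light chain of MHC class I molecules. In brain 2 of the 9 H2-M genes were higher and 0 lower. They were H2-M10.3 (28 and 40 brain reads, 0 to 14 elsewhere, difference 3.04) and H2-M10.6 (27 and 24 brain reads, 0 to 17 elsewhere, difference 2.50). Beside them, 9.45% of all genes in the same range of mean signal were higher in brain. In liver 1 of the 9 was lower, against 7.42% of all genes. It was H2-M11, with 0 reads in both liver libraries and 1 to 8 in the others. B2m was also lower in liver, with a difference of -1.78. Neither liver call was kept after quantile normalization, and the brain call of H2-M10.6 was lost as well. The brain call of H2-M10.3 was kept there, but was lost with a filter of 4 CPM in at least 4 libraries. Of 20 pheromone ligand genes in the table, 1 was higher in brain, the major urinary protein gene Mup5, with a difference of 1.39, and 0 were lower. Of all genes 8.61% were higher and 12.8% lower in brain. The 5 vomeronasal formyl peptide receptor genes gave 0 calls in brain and in liver with limma, and 0 at an unadjusted p under 0.05.

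The other class C receptors, which share the receptor architecture of the Vmn2r proteins, had more genes lower than higher in brain: 2 of 22 were higher and 10 lower, with a median log2 difference of -0.22. Among all 8673 genes in their range of mean signal, 5.89% were higher and 28.0% lower, with a median of -0.27. Gprc5b had -1.62, Grm4 -0.97 and Tas1r2, a sweet taste receptor subunit, -0.94. After quantile normalization 3 were higher and 5 lower in brain. In liver 9 of the 22 were higher and 3 lower, and 5 and 4 after quantile normalization, beside 26.2% higher and 5.66% lower among genes of the same range. Grm4 was also higher in FFPE, by 0.90. The other chemoreceptor families, low in signal as the Vmn2r genes are, showed brain shares close to theirs. Of 217 Vmn1r genes tested, 17 were higher in brain (7.83%) and 0 lower, with a median of 1.16. Of 1104 olfactory receptor genes, 105 were higher (9.51%) and 3 lower, with a median of 1.30. After quantile normalization 5 Vmn1r genes were higher and 3 lower, with a median of 0.15, and 41 olfactory receptor genes were higher and 6 lower, with a median of 0.56. In liver the olfactory receptor genes gave 13 higher and 110 lower, and the Vmn1r genes 0 higher and 4 lower. In FFPE tissue 10 Vmn1r genes were lower and 0 higher. Of all genes, 8.61% were higher and 12.8% lower in brain, 11.8% and 7.42% in liver, and 0.62% and 0.735% in FFPE. For the Vmn1r and olfactory receptor genes, shares among genes of like signal and after quantile normalization are not given here.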

How the data were processed

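Counts of reads per gene were made by the authors with Bowtie2 and featureCounts on mm10, and limma was also used, per the submitters' processing notes; the sources used here give no versions, counted feature, strand or handling of reads that fit several places. The deposited values are log2 CPM in the form of limma's voom, with 0.5 added to each count and each library size multiplied by a factor of 0.851 to 1.098 found in the values; the method behind the factor is not stated. Reads were recovered from them, and 100% of values were whole reads within 0.0001. The 25982 genes reaching 1 CPM in 2 or more of the 8 libraries were tested on the deposited log2 values in limma 3.58.1 (R 4.3.3). An additive model of organ and preservation left 3 residual degrees of freedom, which also hold any interaction of the 2. Moderation with a trend added 13.1 prior degrees of freedom, so the p-values rest largely on spread shared over genes. Benjamini-Hochberg adjustment was over all genes tested. Each organ was set against the mean of the others, and FFPE against frozen. The procedure was tested on simulated data. Differences per organ or preservation are plain differences of deposited values. Exact 95% intervals and the limit of 3 reads for a count of 0 cover counting error only; reads carry no molecular identifiers.

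The genes named were family C, up to 6 called Vmn2r genes per comparison and direction by p, the extremes of level per kb (5 each way) and of SD (3 each way), and up to 4 called genes of each list; other names were chosen after their values were seen. The family, the lists and the rules were chosen with earlier results of these data known. Annotation and upstream sequences came from RefSeq (GRCm38.p6), matched by Entrez ID for all 122 genes. Alternatives were quantile normalization, median centring, 2 other filters, no variance trend, array weights, and each library left out; voom weights, leaving out both kidney libraries, and the shares without Vmn2r29 or with the scaling factors were added after seeing the data.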

Additional observations from a re-analysis of the deposited data

Results flagged for a closer look

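The FFPE minus frozen difference of the Vmn2r genes pointed in opposite directions in different organs: the median over the 121 tested genes was -0.75 in brain and -0.44 in heart, but 0.20 in kidney and 0.26 in liver, on the log2 scale. Each organ has 1 library per preservation, so the difference between organs was not tested. The all-gene median of the log2 values lay between 3.90 and 4.28 in the 8 libraries. The 10th percentile over all genes fell from 1.20 in frozen to 0.43 in FFPE brain, and from 0.66 to -0.01 in heart. It rose from -2.72 to -0.50 in kidney and fell from -0.45 to -0.82 in liver. The low end of the table thus moved as the family did in brain, heart and kidney, but not in liver. The part of library composition in this pattern was not tested.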

How the results depend on the processing

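The median Vmn2r gene had 6 to 16 reads per library, with 1 library per organ and preservation, whereas Vmn2r29 had 102 to 1611. Except where stated, the counts below are of Vmn2r genes alone, without the share of all genes called in the same setting. Whether the family or the whole table moved cannot be read from them. The number of Vmn2r genes higher in brain, 8 of 121, was 0 after quantile normalization and 3 with a filter of 4 CPM in at least 4 libraries. It was 19 with array weights, 20 with voom weights and 16 without both kidney libraries, and each of these 3 counts held all 8 genes. Without the variance trend 0 passed in brain, heart, kidney, liver and FFPE in either direction; that setting called 0 genes of the whole table higher in brain. The count lower in brain was 3 after quantile normalization and 2 without both kidney libraries. The kidney call, Vmn2r29, gave 0 after quantile normalization, with no filter and with array weights. Lower in liver were 0 after quantile normalization, 5 with array weights, 1 with voom weights and 17 without both kidney libraries. With each library left out in turn, the counts ran from 0 to 24 higher and 1 to 2 lower in brain, 0 to 1 lower in heart, 0 to 1 higher and 0 to 19 lower in kidney, and 1 to 2 higher and 0 to 13 lower in liver. The cause was not tested. The share of reads on the family without Vmn2r29 moved to 1026, 614, 552, 431, 402, 407, 297 and 324 CPM, in the order frozen and FFPE brain, heart, kidney and liver. With the scaling factors of the deposited values, the share with Vmn2r29 moved to 985 in frozen and 735 in FFPE brain, 564 and 586 in heart, and 480 and 991 in liver. Quantile normalization gave family medians of 0.22 in brain, -0.24 in heart, 0.12 in kidney, 0.21 in liver and -0.07 in FFPE, so the direction in heart, kidney and liver turned. Median centring gave 0.75 in brain. The Vmn2r29 call in FFPE held in 15 of 16 alternatives, as did its brain and liver calls, lost without the variance trend; Vmn2r1 kept its brain call in 10 of 16. The cardiomyocyte gene Myh6 in liver turned to -0.076 after quantile normalization. No paired analysis was possible because the columns carry no replicate number.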

Other observations

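Genes that are not Vmn2r genes but lie within the spans of their clusters were compared in brain in 6 clusters. In the cluster of Vmn2r65 to Vmn2r79 on chromosome 7, 16 such genes had a median log2 difference of 1.96, beside 1.09 for the 15 Vmn2r genes. In the chromosome 17 cluster of Vmn2r90 to Vmn2r110, 12 such genes had a median of -0.06, beside 0.46, and 2 of them were lower. In the chromosome 7 cluster that holds Vmn2r29, 3 such genes had a median of -0.05, beside 0.78, and 1 was lower. Of all genes 12.8% were lower in brain. The other 3 clusters had medians of 0.80 (4 genes), 0.84 (1 gene) and 0.24 (10 genes). Vmn2r88 and Vmn2r89 share the annotated span of Gm7247, which had 23 and 19 reads in frozen and FFPE brain and 0 to 9 elsewhere. Across the 114 genes with an upstream sequence, the number of CG pairs had a rank correlation of 0.0685 with the brain difference, a description across genes.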
